A study of Arabidopsis thaliana with 35 samples.

Results

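Transcripts of 9 genes that write or maintain DNA methylation were followed in mature pollen of Arabidopsis thaliana: the methyltransferases MET1 (AT5G49160), DRM1 (AT5G15380), DRM2 (AT5G14620), CMT2 (AT4G19020) and CMT3 (AT1G69770), and the maintenance factors DDM1 (AT5G66750), VIM1 (AT1G57820), VIM2 (AT1G66050) and VIM3 (AT5G39550). They were taken by identifier from 66429 features of each count table, and all 9 had a row. The choice applied no threshold on levels, but these 9 genes and the lists of related genes were drawn up with earlier results of these data known. The study sequenced poly(A) RNA from pollen of plants that lack the methyl-DNA readers MBD5 and MBD6, or proteins named in the title of the study as regulators of MBD6. It asked how these proteins silence genes and transposable elements. There were 3 single mutants (sln, acd15 and acd21), the double mutants mbd5 mbd6 and acd15 acd21, the triple mutant acd15 acd21 sln, and wild-type plants, all of the ecotype Col0. The genotype labels spell the acd mutants acd15.5 and acd21.4, and the sample titles acd15 and acd21, which is used here. Each group had 5 libraries, of which replicates 1 and 2 belonged to batch 1 and replicates 3 to 5 to batch 2. The names of the 3 batch 2 files of mbd5 mbd6 carry a tag, CR, that the labels do not explain, and whether they are of the same mbd5 mbd6 line as those of batch 1 is not stated. No alleles are named. Whether the 5 libraries of a genotype stem from separate plants is not stated there, so every p-value reflects the spread among these libraries, which may be technical.

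MET1 copies CG methylation onto the new strand after DNA replication, and the VIM proteins, which bind hemimethylated DNA through their SRA domain, are needed for MET1 to keep that methylation. DDM1 is a chromatin remodeller that gives methyltransferases access to heterochromatin. CMT2 and CMT3 methylate non-CG sites in chromatin marked by methylation of histone H3 at lysine 9, and DRM2, with its close homologue DRM1, carries out RNA-directed DNA methylation. A pollen grain holds a vegetative cell, whose heterochromatin is decondensed, and a pair of sperm cells, whose chromatin is compact, and DDM1 protein has been seen in sperm nuclei and not in the vegetative nucleus.

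The library totals were 9267958 to 22208090 counts (median 13847738). Markers of the labelled tissue were present: the 10 sperm cell markers that had a row summed to 1101 to 1462 CPM in the 35 libraries, and all 10 vegetative cell markers to 18614 to 33570 CPM. CPM are counts in 1000000 counts of a library, with the library size scaled by its TMM factor. The summed sperm markers had medians between 1251 CPM (acd15 acd21 sln) and 1324 CPM (acd15 acd21) in the mutants and of 1293 CPM in wild-type, and every mutant range overlapped the wild-type range. The sum hides its members, since PCR11 and GEX1 gave 69.2 to 77.4% of it. Single sperm markers were called in 4 mutants. In sln, DMP9, DAZ1 and DAZ2 were higher (log2 changes 0.20, 0.60 and 0.56) and GEX1 was lower (-0.17). DMP9 was also higher in mbd5 mbd6 (0.20) and in the double mutant acd15 acd21 (0.17), and in the triple mutant MGH3 was higher (0.19) and HAP2 lower (-0.20), each with an adjusted p of at most 0.0377. Of 10 vegetative markers, 1 was called higher in mbd5 mbd6, where their highest log2 change was 0.42. Of 3 tested green tissue markers, 1 was called lower in the triple mutant, where their lowest was -0.53. In the comparisons with wild-type, 4.53 to 6.31% of all tested features were called. The part of these markers in the results was not tested. Of 5 tapetum and young microspore markers, MS1, A9 and ACOS5 had 0 counts in all libraries. The other markers of that list had few, AMS 3 and LAP5 22 counts over all libraries, with at most 2 in a library. The green tissue markers summed to 18.8 to 42.2 CPM. SLN itself had fitted log2 changes of -4.00 in sln and -4.23 in acd15 acd21 sln pollen, and MBD6 of -4.41 in mbd5 mbd6 pollen, each against wild-type. MBD5, ACD15.5 (AT1G76440) and ACD21.4 (AT1G54850), the last 2 identified here as the genes of the acd15.5 and acd21.4 labels, had at most 4 counts in any library and could not check the labels. One library stood apart: replicate 5 of sln, the deepest with 22208090 counts, had a chi-square per degree of freedom of 12.5 to 26.4 against the other 4 sln libraries, compared with 3.18 to 6.58 among those and 2.7 to 17.5 within the other genotypes.

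VIM2 needs a remark on sequence before its values. The VIM2 gene lies at 24589343 to 24592780 on the plus strand of chromosome 1 (coordinates of RefSeq's TAIR10.1), next to VIM4 (AT1G66040), at 24583740 to 24586760 on the minus strand. Their coding sequences were 99.4% identical, with 9 substitutions and 3 gap columns in 1872 aligned columns. The longest stretch without a difference was 1289 bases. VIM3, on chromosome 5, was 94.4% identical to VIM2, and VIM1 was 72.4% identical to it, with gap columns counted as differences. The stretch of 120 coding bases shown here, bases 40 to 159 of each coding sequence and within 1 exon, is printed because it holds 3 of the differences between VIM2 and VIM4. Capitals mark the bases that differ from VIM4 in VIM2 (chr1:24589573-24589692, plus strand) and from VIM2 in VIM4 (chr1:24586523-24586642, minus strand). In VIM3 (chr5:15840345-15840464, minus strand) they mark the 9 bases that differ from VIM2.
VIM2: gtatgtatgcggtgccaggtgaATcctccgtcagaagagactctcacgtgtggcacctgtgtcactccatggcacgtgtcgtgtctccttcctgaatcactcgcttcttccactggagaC
VIM4: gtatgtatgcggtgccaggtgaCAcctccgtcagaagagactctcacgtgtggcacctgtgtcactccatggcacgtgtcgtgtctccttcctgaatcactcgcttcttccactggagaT
VIM3: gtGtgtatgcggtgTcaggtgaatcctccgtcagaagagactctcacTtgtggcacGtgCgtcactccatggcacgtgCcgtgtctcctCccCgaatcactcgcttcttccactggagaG
Of all windows of 50 bases within VIM2 exons, 67.2% were found elsewhere in the genome, compared with 76.6% for VIM4 and 14.7% for VIM3. At 100 bases the shares were 49.9%, 58.3% and 1.07% in the same order of genes. No window of either length in MET1, DDM1, VIM1, DRM1, DRM2, CMT2 or CMT3 was found elsewhere. How reads with several alignments were treated is not given in the sources used here, so the VIM2 and VIM4 counts are uncertain, and those of VIM3 in part.

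The 9 genes fell into 3 classes by level: DDM1 and MET1 were abundant, VIM1 and VIM3 intermediate, and the other 5 at or near background. Per kb of coding length, so that genes can be compared, DDM1 had 42.1 ± 2.91 CPM per kb (SD, n = 35 libraries) and MET1 17.1 ± 1.67. VIM3 had 5.12 ± 0.505 CPM per kb and VIM1 3.96 ± 0.370. VIM2 followed with 0.278 ± 0.103, DRM2 with 0.176 ± 0.0866, CMT2 with 0.0327 ± 0.0250 and CMT3 with 0.0191 ± 0.0239 CPM per kb. Among all tested features, the level of DDM1 per library stood at the 89.4th percentile, MET1 at 87.9, VIM3 at 61.2, VIM1 at 57.9 and VIM2 at 2.87, without division by length. MET1 and DDM1 together gave 87.97 to 91.9% of the summed CPM of the 9 genes (median 90.6%). In RNA of whole pollen, fewer cells of a type and less RNA per cell cannot be told apart.

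**Figure D1:**
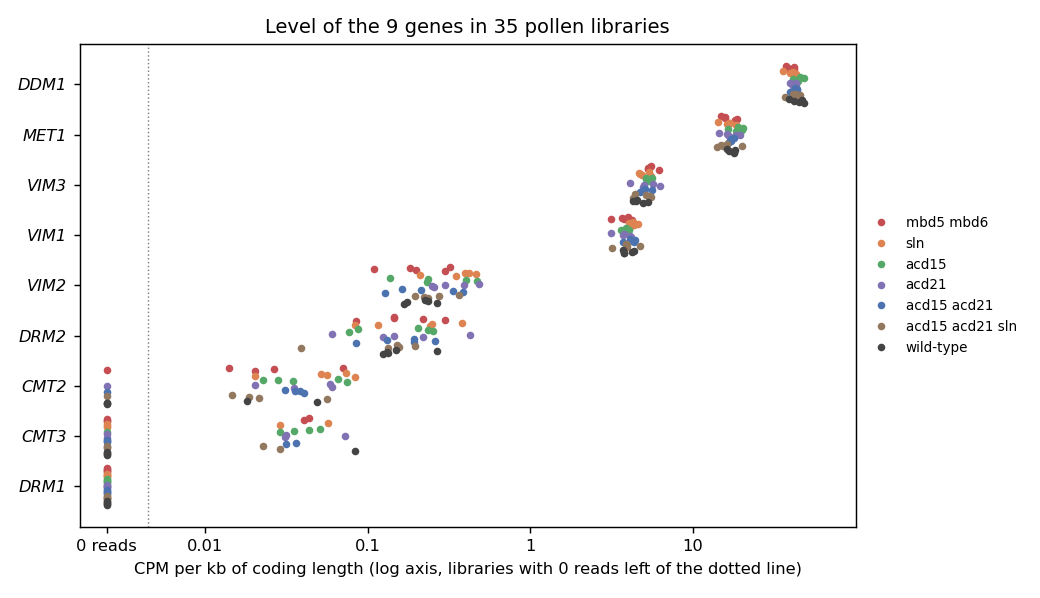
Level of the 9 genes, as CPM per kb of coding length on a log axis, with 1 point per library, colours for the 7 genotypes and libraries with 0 reads set left of the dotted line. DDM1 and MET1 stand apart from VIM3 and VIM1 in every library, and DRM1 has 0 reads in all 35.

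The methyltransferases of non-CG methylation gave almost no reads. DRM1 had 0 counts in all 35 libraries, which allows up to 0.00599 CPM over the 35 libraries together and 0.108 to 0.368 CPM in a single library (3 counts, counting error only). DRM2, the main enzyme of RNA-directed DNA methylation, had 172 counts in all, with at least 1 and at most 20 in a library, and a mean of 0.330 CPM. CMT2, the chromomethylase that acts mainly on CHH sites of heterochromatin, had 68 counts, at most 8 in a library and none in 7 libraries. CMT3, which acts mainly on CHG sites, had 26 counts in 16 libraries, at most 4 in each. These 4 genes did not pass the low-count filter and were not tested with it. DRM2 ranged from 0.254 ± 0.110 CPM in acd15 acd21 sln to 0.405 ± 0.225 CPM in sln pollen among the mutants, against 0.304 ± 0.113 CPM in wild-type (SD, n = 5 each). Neither of these mutant means differed from wild-type by more than its own SD. Summed over the 5 libraries of a genotype, CMT2 had 20 counts in sln, 14 in acd15, 9 in the double mutant acd15 acd21, 8 in acd21, 7 in mbd5 mbd6 and 6 in the triple mutant, against 4 counts in wild-type. These sums are not scaled by depth, and 8 of the 20 sln counts came from replicate 5, the deepest library. As CPM, the means were 0.223 ± 0.0953 in sln and 0.177 ± 0.0914 in acd15, against 0.0519 ± 0.0825 in wild-type (SD, n = 5 each). Both differed from wild-type by more than their own SD. Without the low-count filter, 8 members entered the test for any difference among the 7 genotypes, and only MET1 passed. CMT3 had 2 to 7 counts per mutant genotype, against 3 counts in wild-type.

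MET1 (chromosome 5, 19932114 to 19938470, plus strand) was not called different in any mutant. It had 83.4, 85.5, 72.6, 72.3 and 68.3 CPM in replicates 1 to 5 of mbd5 mbd6 and 84.3, 74.4, 76.7, 77.9 and 65.9 CPM in those of sln. The acd15 libraries had 85.3, 92.5, 76.2, 94.0 and 87.2 CPM and the acd21 libraries 77.2, 89.8, 84.6, 74.8 and 66.5 CPM. Values in the double mutant acd15 acd21 were 76.7, 78.5, 79.2, 78.8 and 82.5 CPM and in the triple mutant 64.6, 70.6, 91.8, 68.3 and 74.4 CPM, against 82.1, 82.8, 76.5, 84.0 and 74.2 CPM in wild-type. Every mutant range overlapped that of wild-type. The mutant means ran from 87.0 ± 7.04 CPM in acd15, through acd15 acd21 (79.1 ± 2.11), acd21 (78.6 ± 9.03), mbd5 mbd6 (76.4 ± 7.56) and sln (75.8 ± 6.66), to 73.9 ± 10.6 CPM in acd15 acd21 sln, and wild-type (79.9 ± 4.29 CPM) lay between acd15 and acd15 acd21 (SD, n = 5 each). Only the gap between acd15 and wild-type, 7.12 CPM, exceeded the larger SD of the neighbours, and its test did not pass (log2 change 0.12 ± 0.08 SE, adjusted p = 0.561). The fitted log2 changes against wild-type ran from -0.11 in acd15 acd21 sln to 0.12 in acd15. That of sln was -0.08, and -0.03 without its replicate 5, the lowest of its libraries. No 95% interval reached beyond -17.1% or 21.6%.

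DDM1 (chromosome 5, 26648897 to 26653191, plus strand) had 93.1, 95.4, 88.2, 96.1 and 86.0 CPM in mbd5 mbd6 and 99.1, 98.7, 90.9, 94.9 and 82.1 CPM in sln. The acd15 libraries had 102, 102, 95.2, 111 and 104 CPM and the acd21 libraries 95.01, 98.7, 93.6, 98.2 and 90.2 CPM. Values in the double mutant acd15 acd21 were 91.1, 96.7, 99.5, 101 and 96.7 CPM and in the triple mutant 84.6, 97.5, 104, 98.3 and 94.3 CPM, against 111, 103, 95.6, 108 and 90.04 CPM in wild-type. The wild-type libraries themselves covered 90.04 to 111 CPM, and each mutant range overlapped theirs. Mutant means ran from 103 ± 5.72 CPM in acd15, through acd15 acd21 (96.9 ± 3.69), acd15 acd21 sln (95.8 ± 7.23), acd21 (95.1 ± 3.51) and sln (93.1 ± 7.02), to 91.7 ± 4.46 CPM in mbd5 mbd6, with wild-type at 101 ± 8.57 CPM between acd15 and acd15 acd21 (SD, n = 5 each). No neighbours in this order differed by more than the larger of their SDs. The lowest fitted value was that of mbd5 mbd6, a log2 change of -0.14 ± 0.06 SE, with an unadjusted p of 0.0123 and an adjusted p of 0.136 (edgeR's quasi-likelihood test, Benjamini-Hochberg adjustment). The mbd5 mbd6 value was called in 1 of 20 alternative settings and not in the main fit. In that setting, without wild-type replicate 5, the lowest of the wild-type libraries, the log2 change was -0.18 and the adjusted p 0.0452. The sln value was -0.13 ± 0.05 (adjusted p = 0.173), and -0.08 without replicate 5 of sln, its lowest library. All 6 intervals lay between -16.3% and 9.49%.

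VIM1 (chromosome 1, 21413981 to 21418115, minus strand) had 8.20, 7.27, 6.08, 7.10 and 7.76 CPM in mbd5 mbd6 and 8.13, 8.38, 8.92, 7.81 and 8.34 CPM in sln. The acd15 libraries had 7.43, 7.83, 7.03, 7.53 and 7.53 CPM and the acd21 libraries 8.04, 7.98, 7.22, 7.33 and 6.04 CPM. Values in the double mutant acd15 acd21 were 7.16, 8.37, 8.27, 8.51 and 7.97 CPM and in the triple mutant 6.16, 7.62, 9.13, 7.60 and 7.48 CPM, against 7.31, 7.28, 8.22, 8.38 and 7.17 CPM in wild-type. The ranges of all 6 mutants overlapped that of wild-type, and means ran from 8.32 ± 0.407 CPM in sln to 7.28 ± 0.800 CPM in mbd5 mbd6 among the mutants, against 7.67 ± 0.578 CPM in wild-type. No neighbours in the order of the 7 means differed by more than the larger SD. The log2 changes lay between -0.06 (mbd5 mbd6) and 0.11 (sln), with intervals within -15.9% and 21.9%.

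VIM3 (chromosome 5, 15837178 to 15840678, minus strand) had 11.5, 9.88, 9.79, 10.11 and 10.2 CPM in mbd5 mbd6 and 10.3, 9.01, 8.78, 8.69 and 9.96 CPM in sln. The acd15 libraries had 9.83, 9.87, 9.48, 10.3 and 9.58 CPM and the acd21 libraries 9.14, 11.6, 9.23, 10.6 and 7.64 CPM. Values in the double mutant acd15 acd21 were 8.83, 9.28, 10.4, 9.41 and 9.25 CPM and in the triple mutant 7.92, 10.3, 10.2, 9.56 and 8.17 CPM, against 9.11, 9.88, 8.31, 7.94 and 8.37 CPM in wild-type. The mean was highest in mbd5 mbd6, 10.3 ± 0.714 CPM, and lowest in wild-type, 8.72 ± 0.775 CPM (SD, n = 5 each), but the lowest mbd5 mbd6 library (9.79 CPM) lay below the highest wild-type library (9.88 CPM). The log2 change in mbd5 mbd6 was 0.25 ± 0.09 SE, with an unadjusted p of 0.00717 and an adjusted p of 0.0967, the smallest of any member in any of the 6 comparisons with wild-type. The other mutants had log2 changes between 0.07 (acd15 acd21 sln) and 0.18 (acd15), and all 6 comparisons share the same 5 wild-type libraries. The 6 intervals lay between -7.41% and 34.6%.

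VIM2 was read too thinly to bear such limits. Its counts were 7, 4, 2, 5 and 11 in mbd5 mbd6 and 10, 5, 12, 11 and 22 in sln. The acd15 libraries had 6, 13, 17, 8 and 4 counts and the acd21 libraries 7, 6, 8, 7 and 8 counts. The double mutant acd15 acd21 had 3, 8, 9, 8 and 5 counts and the triple mutant 6, 5, 7, 3 and 12, against 4, 6, 4, 7 and 6 counts in wild-type. All groups overlapped wild-type. The fitted log2 changes ran from 0.12 in mbd5 mbd6 to 0.80 ± 0.32 SE in sln (adjusted p = 0.131), with intervals as wide as -36.2% to 173%. VIM4, which differs from VIM2 by few bases, had 8.13 to 35.5 times its counts (median 14.7).

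**Figure D2:**
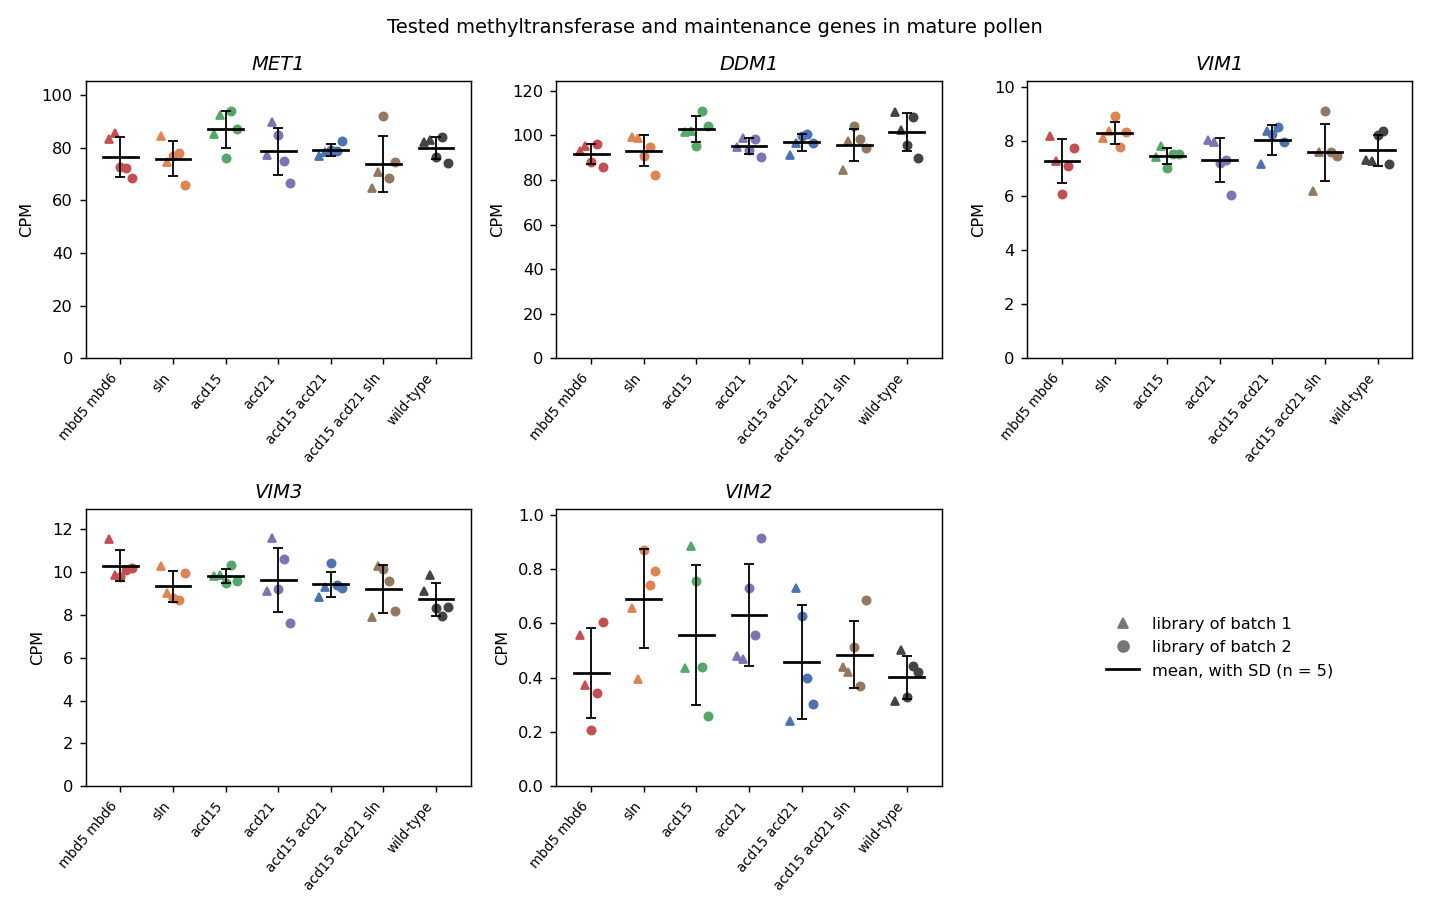
CPM of the 5 tested members in each library of the 6 mutants and wild-type, with triangles for batch 1, circles for batch 2, and lines for the mean with its SD (n = 5). The range of each mutant overlaps that of wild-type in every panel.

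None of the 5 tested members was called in any comparison of a mutant with wild-type, at an adjusted p under 0.05 over all 12106 tested features (edgeR's quasi-likelihood test). The same comparisons called 6.31% of tested features in sln, 6.21% in the triple mutant, 5.48% in mbd5 mbd6, 4.97% in the double mutant acd15 acd21, 4.57% in acd15 and 4.53% in acd21. With 5 members, a count of 0 lies near those shares. Nor did any of the 30 member ranges lie wholly outside the wild-type range, which was the case for 5.35% of tested features in mbd5 mbd6, 5.31% in sln, 5.07% in the triple mutant, 5.06% in acd15, 4.95% in the double mutant acd15 acd21 and 4.94% in acd21. At an unadjusted p under 0.05 there were 5 of 30 values: DDM1 and VIM3 in mbd5 mbd6, DDM1 and VIM2 in sln, and VIM3 in acd15. That threshold was passed by 20.8% of all tested features in sln, 17.9% in the triple mutant, 16.9% in mbd5 mbd6, 15.6% in the double mutant acd15 acd21, 13.4% in acd21 and 13% in acd15, shares near that of the members. The median log2 change of the 5 members was between -0.06 (mbd5 mbd6) and 0.12 (acd15), beside medians of all tested features between -0.00295 and 0.0125. The DESeq2 alternative also called none of the members.

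The test for any difference among the 7 genotypes gave adjusted p-values of 0.166 for DDM1, 0.317 for MET1, 0.357 for VIM2, 0.371 for VIM3 and 0.527 for VIM1, while 10.4% of all tested features passed. MET1 passed it without replicate 3 of the triple mutant (adjusted p = 0.0262), and without the low-count filter (adjusted p = 0.0118). Among the 15 pairs of mutants, 0 of 75 member values passed. Against mbd5 mbd6, 3.34% of tested features were called in sln, 2.22% in the triple mutant, 1.85% in acd15, 1.62% in the double mutant acd15 acd21 and 1.35% in acd21. Against sln the shares were 4.73% in the triple mutant, 3.46% in acd15, 3.14% in the double mutant acd15 acd21 and 2.52% in acd21. Within the acd mutants they were smaller, 0.281% for acd21 against acd15, 0.24% for the double mutant against acd15 and 0.273% for it against acd21. For the triple mutant they were 1.97% against acd15, 1.58% against acd21 and 2.21% against the double mutant. The smallest adjusted p was 0.116, for DDM1 in acd15 against mbd5 mbd6 (log2 change 0.17 ± 0.05 SE). MET1 in the same pair had 0.19 ± 0.08 (adjusted p = 0.259). The departure from added log2 effects was not called for any member, neither between acd15 and acd21, where 3.3% of features passed, nor between sln and acd15 acd21, where 5.57% passed.

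**Figure D3:**
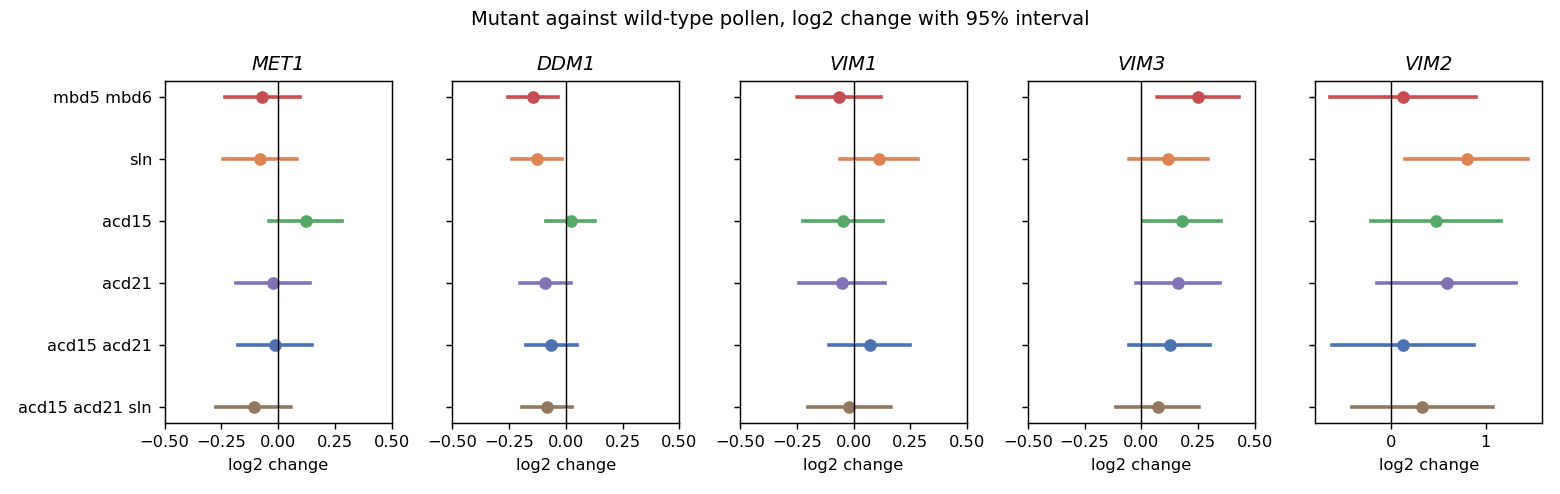
Fitted log2 change of the 5 tested members in each mutant against wild-type (points) with 95% intervals (lines), each panel with its own gene and a wider axis for VIM2. The intervals of MET1, DDM1, VIM1 and VIM3 are narrow, and those of VIM2 reach from -0.65 to 1.45.

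The size of the changes can be set beside the rest of the transcriptome. The largest absolute log2 change over the 6 mutants was 0.12 for MET1, 0.14 for DDM1, 0.11 for VIM1 and 0.25 for VIM3, against a median of 0.25 for all tested features, and 0.80 for VIM2. The median was not matched for level, and low counts add noise to such a largest value. MET1 and DDM1 stood at the 87.9th and 89.4th percentile of level and VIM2 at the 2.87th. Nor was any member called between the batches: batch 2 against batch 1 gave log2 changes of -0.06 for MET1, -0.02 for DDM1, 0.01 for VIM1, 0.14 for VIM2 and -0.06 for VIM3, in a comparison where 17.6% of tested features were called. Cell type markers did differ in it: 6 of 10 sperm markers were called higher in batch 2 (median log2 change of the 10 0.16) and 7 of 10 vegetative markers lower (median -0.15), and their part in the member values was not tested. The mutant effect on a member was not called different between batches in any of 30 tests, in fits where 0.00826% of tested features passed for mbd5 mbd6 and for the triple mutant, and 0% for the other 4. Within batches the acd15 acd21 sln values of DDM1 were 0.01 in batch 2 and -0.23 in batch 1 (difference 0.24 ± 0.11 SE, unadjusted p = 0.0299, adjusted p = 0.894), and those of MET1 were 0.01 in batch 2 and -0.29 in batch 1 (adjusted p = 0.928). In a fit of batch 1 alone this MET1 value was called lower (adjusted p = 0.0470).

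Between libraries of the same genotype, MET1 and DDM1 moved together. After removal of genotype and batch means, Pearson's r over the 35 libraries was 0.69 between MET1 and DDM1, 0.58 between MET1 and VIM1, 0.52 between VIM1 and VIM3 and 0.46 between DDM1 and VIM1, as a description of points that share library and depth. Spearman's rho of these pairs was lower, at 0.59, 0.40, 0.30 and 0.31 in the same order. VIM2 had r between -0.19 and 0.17 with the other 4. The ratio of MET1 to DDM1 CPM stayed between 0.695 and 0.910 in all libraries (median 0.812). The ratio of VIM3 to VIM1 varied more, with medians of 1.41 in mbd5 mbd6, 1.32 in acd15, 1.28 in acd21, 1.26 in the triple mutant, 1.16 in the double mutant acd15 acd21 and 1.11 in sln, against 1.17 in wild-type. Its mbd5 mbd6 range, 1.31 to 1.61, overlapped the wild-type range of 0.947 to 1.36. The median counts per library were 133 for VIM3 and 104 for VIM1, against 1058 for MET1 and 1383 for DDM1. Counting error is therefore larger in the ratio of VIM3 to VIM1, and its part in the spread was not tested.

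The relation of the members with the summed sperm markers was examined after genotype and batch means had been subtracted (35 libraries). The permutations moved these deviations across genotypes within a batch. Subtracting the means leaves fewer free values than libraries, which the permutations ignore, so their p-values are likely too small. For DDM1 Pearson's r was 0.47 (permutation p = 0.00504, adjusted over 4 members p = 0.0202), with 0.48 in batch 1 (14 libraries) and 0.47 in batch 2 (21 libraries). Spearman's rho was 0.31 and did not pass (permutation p = 0.0738, adjusted p = 0.295). Without the 2 libraries farthest from the median of the marker level r was 0.37, and without sln replicate 5 it was also 0.37. With the other 8 sperm markers, without PCR11 and GEX1, r was 0.18 (permutation p = 0.322, adjusted over 8 relations p = 0.694). The difference between these values of r was not tested. With the summed vegetative markers r was 0.35 (permutation p = 0.0454, adjusted p = 0.363). These further sums were chosen after seeing the data. MET1 (r = 0.22, permutation p = 0.227, adjusted p = 0.455), VIM1 (r = 0.01, permutation p = 0.946, adjusted p = 0.946) and VIM3 (r = 0.07, permutation p = 0.671, adjusted p = 0.895) did not pass with the sperm markers, and their rho values had adjusted permutation p-values of at least 0.606.

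The genes whose pattern over the 35 libraries, with batch means removed, was most like that of MET1 among 10281 nuclear genes were AT4G29790 (Pearson's r = 0.87), the chromatin remodellers ATRX (0.85) and CHR17 (0.83). For DDM1 they were AT1G05120 (0.87), AT5G05510 (0.87) and AT5G49900 (0.86). VIM1 came closest to ECT11 (0.73), EMB2773 (0.71) and Phox2 (0.66), and VIM3 to HMG (AT3G28730, 0.63), AT1G18830 (0.58) and AT1G05910 (0.56). These values describe the libraries, which share depth and preparation.

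Among genes next to these 9 in the pathway, the relatives of the VIM genes did differ. Of 9 other methyltransferase and VIM homologues, DRM3, VIM4, VIM5 and VIM6 were tested. MET2a and MET3 had 0 counts, and MET2b, CMT1 and DNMT2 had 1, 4 and 54 counts over all libraries. VIM6 (AT4G08590, ORTHL in RefSeq) was the most abundant of the family, at 183 ± 30.1 CPM per kb. It had 288, 302, 278, 295 and 285 CPM in mbd5 mbd6, 283, 311, 268, 269 and 302 CPM in acd15 and 294, 326, 294, 303 and 298 CPM in acd21. In acd15 acd21 it had 271, 275, 289, 301 and 265 CPM, in sln 211, 212, 215, 198 and 181 CPM, and in acd15 acd21 sln 192, 199.9, 216, 220.1 and 221 CPM. In wild-type it had 235, 236, 209, 232 and 206 CPM. All libraries of mbd5 mbd6, acd15, acd21 and acd15 acd21 lay above all wild-type libraries, and those of sln and acd15 acd21 sln overlapped them.

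VIM6 was higher in mbd5 mbd6 (log2 change 0.37 ± 0.05 SE, adjusted p = 4.12e-07), acd15 (0.36, adjusted p = 7.40e-07), acd21 (0.44, adjusted p = 6.86e-09) and acd15 acd21 (0.33, adjusted p = 5.50e-06), which is 1.25 to 1.36 times the wild-type level. In sln it was at -0.14 ± 0.05 (adjusted p = 0.107) and in acd15 acd21 sln at -0.09 ± 0.05 (adjusted p = 0.378), neither called. Replicate 5 was the lowest sln library, and without it the sln value was -0.10. The difference itself was tested: sln against mbd5 mbd6 gave -0.51 ± 0.05 (adjusted p = 4.72e-10) and acd15 acd21 sln against acd15 acd21 -0.42 ± 0.05 (adjusted p = 1.47e-07). In batch 1 alone the acd15 acd21 call was lost (0.21, adjusted p = 0.0892) and the acd15 acd21 sln value was called lower (-0.27, adjusted p = 0.0152). VIM6 is a separate gene from VIM1, VIM2 and VIM3, and no window of 50 bases of its exons was found elsewhere. With gap columns counted as differences, its coding sequence was 54.7 to 56.8% identical to theirs. Most of the differences were gaps: its coding sequence has 1398 bases against 1854 to 1938, with 540 to 564 gap columns and 287 to 318 substitutions.

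VIM4 had 7.60, 7.19, 7.40, 8.49 and 7.22 CPM in sln, 8.52, 8.37, 7.04, 8.21 and 7.41 CPM in acd21 and 7.85, 7.37, 6.94, 6.50 and 8.22 CPM in acd15 acd21 sln, against 5.50, 6.53, 6.50, 5.54 and 5.21 CPM in wild-type. It was higher in sln (log2 change 0.38 ± 0.10 SE, adjusted p = 0.00773), acd21 (0.45 ± 0.10, adjusted p = 0.00173) and acd15 acd21 sln (0.36 ± 0.10, adjusted p = 0.0175), with ranges above wild-type in sln and acd21. In mbd5 mbd6, acd15 and acd15 acd21 it was at 0.26, 0.24 and 0.30, not called (adjusted p = 0.140, 0.204 and 0.0700). Each of the 3 calls was lost in each batch alone, where the log2 changes were 0.31 to 0.49. The acd15 acd21 sln call was also lost without its replicate 5 (0.30, adjusted p = 0.107) or without wild-type replicate 1, 4 or 5 (0.32 to 0.34, adjusted p = 0.0512 to 0.0654), and with only the triple mutant and wild-type in the fit (0.36, adjusted p = 0.0766). With VIM2 and VIM4 counts added together, a choice made after seeing the data, the sum was higher in sln (0.41, adjusted p = 0.00211), acd21 (0.46, adjusted p = 7.64e-04) and acd15 acd21 sln (0.36, adjusted p = 0.0140). VIM4 supplied most of the counts of the sum in every library. VIM5 passed the test for any difference (adjusted p = 0.0199) but no comparison with wild-type.

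**Figure D4:**
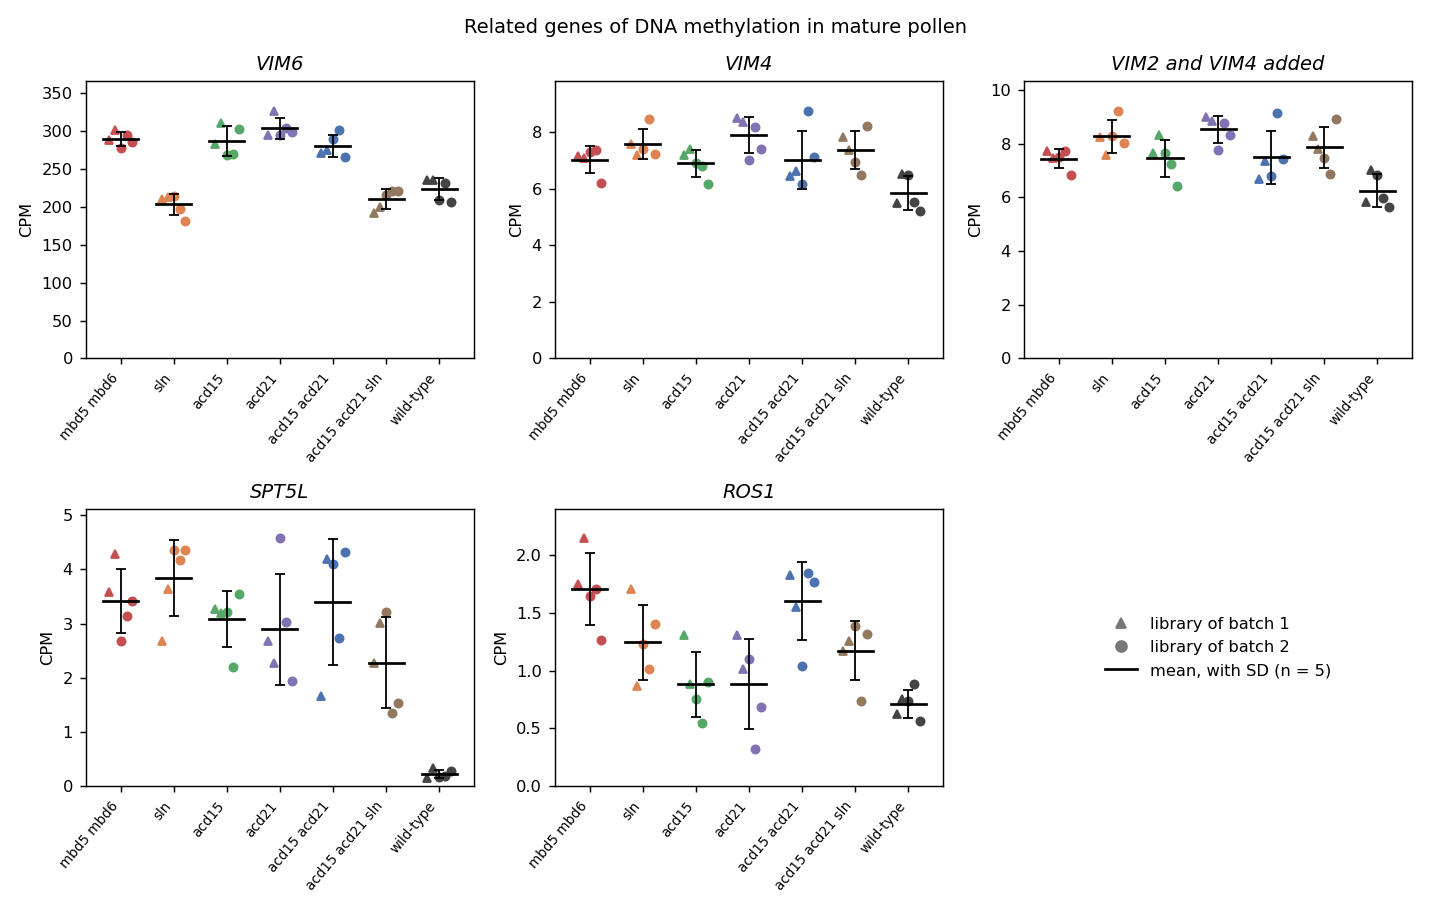
CPM of VIM6, VIM4, the sum of VIM2 and VIM4, SPT5L and ROS1 in each library of the 6 mutants and wild-type (triangles for batch 1, circles for batch 2, lines for the mean with its SD, n = 5). VIM6 lies above wild-type in mbd5 mbd6, acd15, acd21 and acd15 acd21 and overlaps it in sln and acd15 acd21 sln, and SPT5L lies above wild-type in all mutants.

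RNA-directed DNA methylation, the pathway that DRM2 serves, was represented by 7 tested genes of 22 with a row. SPT5L (AT5G04290, KTF1 in RefSeq), an effector that binds AGO4 and the Pol V transcripts, was higher in every mutant. It had 45, 46, 26, 46 and 62 counts in mbd5 mbd6 libraries, 41, 46, 60, 62 and 121 counts in sln libraries and 45, 47, 72, 40 and 55 counts in acd15 libraries. The acd21 libraries had 39, 29, 50, 38 and 17 counts, the double mutant acd15 acd21 21, 46, 59, 55 and 71 counts and the triple mutant 31, 36, 44, 11 and 27 counts, against 2, 4, 2, 3 and 4 counts in wild-type. No mutant library was as low as any wild-type library. Its log2 change was highest in sln (4.07 ± 0.37), followed by mbd5 mbd6 (3.88 ± 0.39), the double mutant acd15 acd21 (3.86 ± 0.39), acd15 (3.72 ± 0.39), acd21 (3.65 ± 0.41) and the triple mutant (3.31 ± 0.43), with SE and an adjusted p of at most 2.47e-07 in each. All 6 rest on the 15 counts of the shared wild-type libraries. CLSY4 (AT3G24340), which helps bring Pol IV to its targets, was higher in acd15 acd21 (0.44 ± 0.09, adjusted p = 3.86e-04) and in sln (0.30 ± 0.09, adjusted p = 0.0345). The sln call was lost in batch 1 alone (0.28), in batch 2 alone (0.31) and in 9 other settings, among them DESeq2 (0.28, adjusted p = 0.121). The acd15 acd21 call was lost in batch 1 alone (0.29, adjusted p = 0.669). AGO9, at 19.9 ± 1.48 CPM per kb, SUVH9, DRD1, RDR2 and IDN2 were not called in any mutant, and AGO4, DCL3, NRPD1 and NRPE1, the last 2 the largest subunits of Pol IV and Pol V, did not pass the filter.

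The demethylases work against the methyltransferases. ROS1 (AT2G36490) was higher in mbd5 mbd6 (log2 change 1.203 ± 0.25, adjusted p = 5.25e-04), acd15 acd21 (1.18 ± 0.24, adjusted p = 4.93e-04) and sln (0.83 ± 0.25, adjusted p = 0.0320), 1.78 to 2.30 times wild-type. It had 1.75, 2.14, 1.65, 1.71 and 1.27 CPM in mbd5 mbd6 and 1.83, 1.55, 1.04, 1.84 and 1.76 CPM in acd15 acd21, against 0.628, 0.753, 0.740, 0.882 and 0.563 CPM in wild-type, without overlap. In sln it had 1.70, 0.870, 1.23, 1.01 and 1.402 CPM, which overlapped wild-type. The sln call was lost in 9 of 20 settings, among them DESeq2 (0.81, adjusted p = 0.0871) and the fit without sln replicate 5 (0.73, adjusted p = 0.162). The acd15 acd21 call was lost in batch 1 alone (1.29, adjusted p = 0.153). That of mbd5 mbd6 was lost in batch 1 alone (1.48, adjusted p = 0.0556) and in batch 2 alone (1.03, adjusted p = 0.0685), with log2 changes near that of the main fit. DME and DML3 were not called, and DML2 was not tested.

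In the lists of the replication fork, H3K9 methylation with linker histones, and the methyl donor cycle, 3 of 96 values (16 tested genes in 6 mutants) were called, or 3.13%, beside the 4.53 to 6.31% of all tested features. None of 5 tested partners at the replication fork (FAS1, FAS2, MSI1, HDA6, RBR1) was called in any mutant. Of 6 tested genes of H3K9 methylation and linker histones, SUVH5, a histone methyltransferase, was higher in acd15 (0.29 ± 0.07, adjusted p = 0.00221). That call was lost in batch 1 alone (0.41, adjusted p = 0.0723) and in batch 2 alone (0.23, adjusted p = 0.200). Of 5 genes of the methyl donor cycle, all tested, ADK1, an adenosine kinase, was higher in mbd5 mbd6 (0.37 ± 0.08, adjusted p = 0.00178) but not in batch 2 alone (0.32, adjusted p = 0.149). SAHH2, a homologue of the S-adenosylhomocysteine hydrolase SAHH1, was higher in sln (0.41 ± 0.10, adjusted p = 0.00335). It had 15.2, 15.4, 17.8, 19.0 and 26.1 CPM in replicates 1 to 5 of sln, against at most 15.4 CPM in wild-type. The call was lost without replicate 5 (0.24, adjusted p = 0.0881), in batch 1 alone (0.10, adjusted p = 0.872) and with only sln and wild-type in the fit (0.42, adjusted p = 0.112). Over all 6 lists of related genes, 21 of 180 values (11.7%) were called higher and 0 lower. The shares of all tested features called in either direction were 4.53 to 6.31%. By list, 29.2% of values were called among the homologues, 19.0% in RNA-directed DNA methylation and 16.7% in demethylation. SPT5L gave 6 of the 21 calls and VIM6 gave 4, and the lists were drawn up with earlier results known. Of all tested features, 2.39% were called lower in the triple mutant, 1.61% in sln, 1.41% in mbd5 mbd6, 1.26% in the double mutant acd15 acd21, 1.23% in acd21 and 1.03% in acd15, so that 0 lower calls in lists of this size lie near the background.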

How the data were processed

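Poly(A) RNA of mature pollen was sequenced in 35 libraries. The authors deposited whole-number read counts per feature for each library, made with Trim Galore, STAR and HTSeq on the build TAIR10, per the submitters' processing notes. For their versions, the strand setting and the treatment of reads with several alignments, the sources used here give no information. Reads in no feature were 0.217 to 0.999% of the sum of reads in features, in no feature and ambiguous between features. They stayed out of library sizes.

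From the counts, features passing edgeR's low-count filter (minimum count 10, minimum total 15) were kept, 12106 of 66429. All libraries entered 1 fit of genotype and batch with edgeR 4.0.16 (TMM scaling, quasi-likelihood F test) in R 4.3.3. A call is an adjusted p under 0.05 (Benjamini-Hochberg over all tested features), and SE is on the log2 scale. The script was tested on simulated data. DESeq2 1.42.0 was an alternative. CPM use library sizes scaled by TMM. Coordinates, coding lengths and sequences come from RefSeq's TAIR10.1.

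Members and gene lists were chosen with earlier results of these data known. All 9 members are named, as are list genes called in at least 1 comparison with wild-type and the 3 nearest genes by Pearson's r to each member with a mean of at least 50 counts. The sperm marker relation used 100000 permutations within batch and across genotypes. No 2 libraries of 1 genotype agreed within sampling noise. Alternatives left out each library in turn, each batch, the filter or the batch term, changed scaling or test, or added a covariate.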

Additional observations from a re-analysis of the deposited data

Results flagged for a closer look

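VIM3 in replicate 1 of mbd5 mbd6 stood apart from the other 4 libraries of its genotype, at 11.5 CPM against 9.79 to 10.2 CPM in those. Of 35 groups of 5 libraries examined for the 5 tested members, this was the 1 such value, and chance gives about 1 in 20 groups.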

How the results depend on the processing

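Of 588 member values under 45 alternative settings, 5 were called, and 29 changed sign without being called. The 5 called were DDM1 in mbd5 mbd6 without wild-type replicate 5 (-0.18), MET1 in acd15 acd21 sln in batch 1 alone (-0.29, adjusted p = 0.0470), and VIM2 in sln, acd21 and acd15 acd21 sln after its counts were added to those of VIM4. The number of members called was thus 1 instead of 0 in acd15 acd21 sln in batch 1 alone, 1 in each of sln, acd21, acd15 acd21 sln and the 7-genotype test with VIM2 and VIM4 added, and 1 in the 7-genotype test without the low-count filter (MET1, adjusted p = 0.0118). Leaving out 1 library gave 0 to 1 members called in mbd5 mbd6 and 0 to 1 in the 7-genotype test (MET1 without acd15 acd21 sln replicate 3, adjusted p = 0.0262). The cause was not tested. Pearson's r of DDM1 with the summed sperm markers was 0.18 in place of 0.47 when PCR11 and GEX1 were left out of the sum, and no longer passed.

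The uncalled changes of sign were these log2 values against wild-type. In batch 2 alone, DDM1 was at 0.0145 in the double mutant acd15 acd21 and 0.0152 in the triple mutant acd15 acd21 sln, MET1 at 0.0343 in the double and 0.0066 in the triple mutant, and VIM1 at 0.0309 and VIM6 at 0.0221 in the triple mutant. In batch 1 alone, DDM1 was at -0.0587 in acd15, MET1 at 0.0127 in acd21 and 0.0370 in mbd5 mbd6, VIM1 at 0.0719 in acd15, 0.13 in acd21 and 0.0929 in mbd5 mbd6, and VIM3 at -0.0688 in the double and -0.0720 in the triple mutant. Without the filter MET1 was at 0.0058 in the double mutant, and with the percentage of unassigned reads as a covariate VIM1 was at 0.0146 in the triple mutant. Over the settings that leave out 1 library, the range was -0.0133 to 0.0578 for DDM1 in acd15, -0.0341 to 0.0136 for MET1 in the double mutant, -0.0635 to 0.0280 for MET1 in acd21, -0.0983 to 0.0527 for VIM1 in the triple mutant, -0.0924 to 0.0034 for VIM1 in acd21, -0.0684 to 0.26 for VIM2 in the double mutant and -0.0787 to 0.26 for VIM2 in mbd5 mbd6.

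With a replicate block in place of batch, 0 members were called in any comparison (smallest adjusted p of the 7-genotype test 0.0788). The replicate numbers did not pair the libraries: same-numbered libraries had median correlations of their deviations between -0.06 and 0.01, and 7 of 35 libraries correlated best with one of their own number. VIM2, DRM2, CMT2 and CMT3 are limited by their few counts, at most 22 in a library, and DRM1 had 0 counts in all libraries. VIM2 is limited also by the sequence it shares with VIM4.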
